A study of Mus musculus with 6 samples.

Results

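The 8 mouse genes described here belong to the DNA damage checkpoint and the p53 pathway, measured in fully grown oocytes: Trp53, Trp63, Mdm2, Gadd45a, Atm, Atr, Chek1 and Chek2. They were found by their symbols in the authors' deposited table, where 8 of 8 were present among 10896 genes. The study measured RNA by sequencing in 6 samples of 50 germinal vesicle oocytes, which are still arrested before the first meiotic division. All animals were (C57BL x CBA) F1 females. In the in vitro group (3 samples), follicles were freed with collagenase from ovaries of females 10 to 12 days old. They grew on membrane inserts in MEM-alpha medium that held follicle stimulating hormone, fetal bovine serum and an insulin, transferrin and selenium supplement. In the in vivo group (3 samples), ovaries of females 7 to 11 weeks old were punctured with a needle in M2 medium with dbcAMP, a membrane-permeable form of cyclic AMP. A sample is a pool of oocytes, and culture, donor age and the way the oocytes were released cannot be told apart as sources of a difference. The labels do not tie the samples to separate animals or cultures, so the spread between them may be technical. Of 15 oocyte markers 15 were measured, with summed group means of 155752 normalised reads in vitro and 203706 in vivo in the authors' deposited table. The lowest was Figla, with means of 31.8 in vitro and 19.1 in vivo. By the rule given below, 0 markers were called higher and 3 lower in vitro (Bmp15, Kit and Nlrp5). Of all genes, 6.75% were called higher and 8.31% lower. With 15 genes, these counts say nothing about the markers as a set, and calls between groups do not check the labelled cell type.

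Atm and Atr are large kinases that start the response to damaged DNA. Atm answers chiefly to double-strand breaks and Atr to single-stranded DNA at stalled forks and resected breaks. Chek2 and Chek1 are the kinases they switch on. Trp53 is the transcription factor that halts or kills damaged somatic cells, Mdm2 is the ubiquitin ligase that keeps it low, and Gadd45a is a stress gene that p53 can induce. In resting oocytes the relative Trp63 carries much of this role: its full-length protein is held inactive until Chek2 and casein kinase 1 phosphorylate it, and the oocyte then dies. Much of this control acts on proteins, which RNA levels do not show.

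None of the 8 genes was called different between the oocytes grown in culture and those grown in the ovary. A gene was called where its PPEE, read here as the posterior probability of equal expression in both groups, was below 0.05 in the authors' deposited table. By this rule 0 of 8 members were called, against 15.1% of all genes of the table (6.75% higher and 8.31% lower in vitro). With 8 genes, that difference in share says nothing about the group. Both group means of a gene differed by less than 1.5-fold in 7 of 8 members. The exception was Gadd45a, whose mean was 2.42-fold higher in vitro (PPEE 0.0996 by the authors' deposited table). In 3 members the in vitro mean was the higher one and in 5 the lower one. The median log2 change of the members, in vitro over in vivo, was -0.07, and that of all genes was 0.02. The median gene of the table differed by 1.29-fold in either direction.

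**Figure D1:**
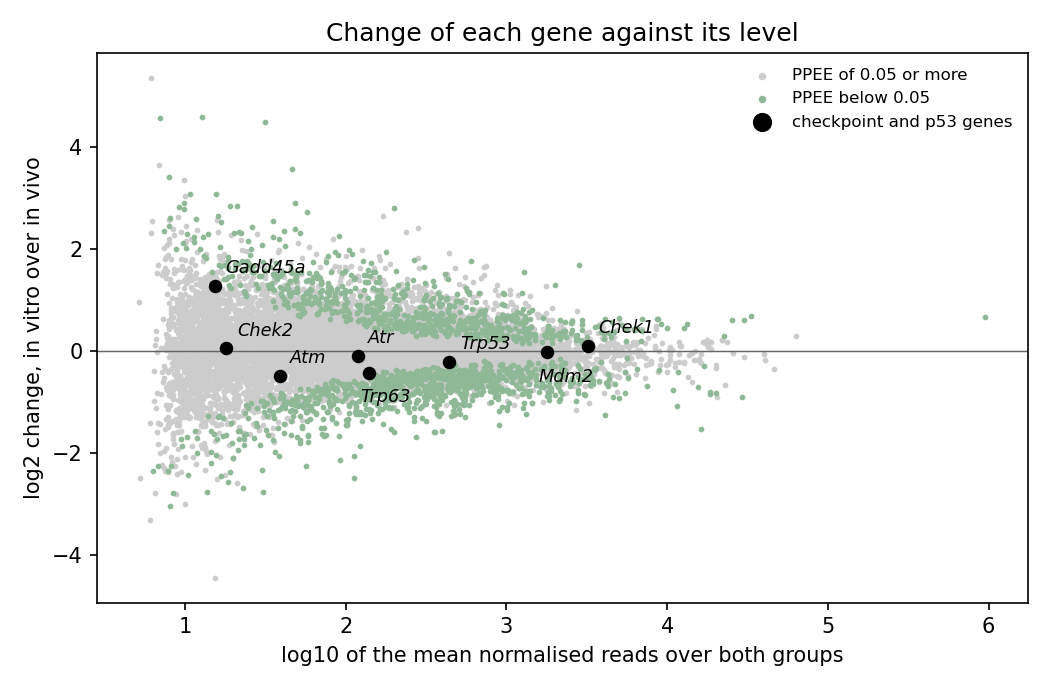
Each point is a gene with means above 0 in both groups; the x axis is the log10 of its mean normalised reads over both groups and the y axis its log2 change, in vitro over in vivo. Green points have a PPEE below 0.05, and the 8 named genes in black all lie among uncalled genes, with Gadd45a highest at a log2 change of 1.27.

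The table gives only group means, but for low genes it also holds the reads of each library. Each mean adds up the whole reads of 3 libraries, weighted by 1 scale per library, and those scales could be found from the low values. Means up to 200 were solved in this way for 5804 genes, 5 of the members among them: Trp63, Gadd45a, Atm, Atr and Chek2. Over these genes the libraries held between 288715 and 431633 reads. The libraries are called A, B and C by scale and cannot be tied to the replicate numbers of the labels. Trp53, Mdm2 and Chek1 were too abundant to be solved, so their group means stand without a spread. The recovered reads were tested with limma voom across all solved genes, with Benjamini-Hochberg adjustment. It called 6.29% of the solved genes and 0 of the 5 members. Gadd45a and Trp63 passed at an unadjusted p below 0.05, as did 26.1% of the solved genes.

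**Figure D2:**
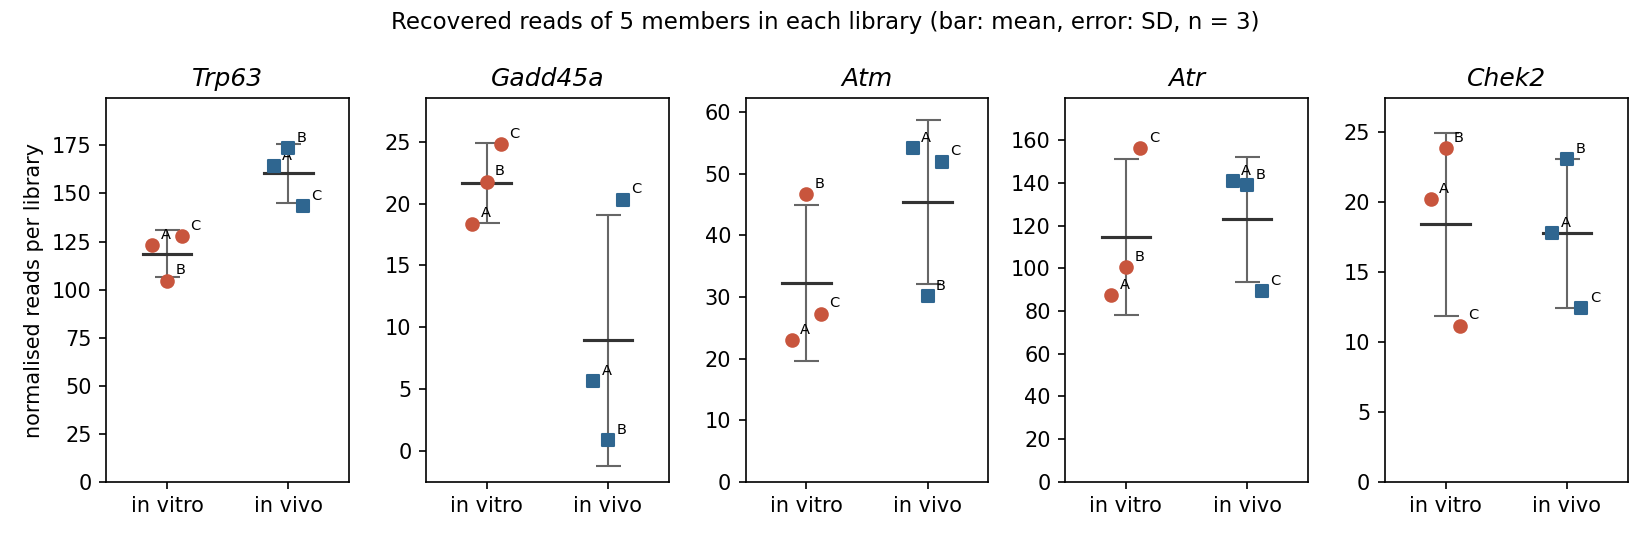
Normalised reads of 5 members in each recovered library, with the in vitro group in red circles and the in vivo group in blue squares; horizontal lines are means and error bars SD (n = 3 libraries). Trp63 is the only one of these 5 genes whose groups do not overlap, and in vivo library C lies within the in vitro range for Gadd45a.

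Of the kinases that sense damage, Atm was scarce and Atr had more reads. Atm had 25, 45 and 22 reads in the in vitro libraries (A to C), and 67, 34 and 46 in the in vivo libraries (A to C). Scaled by library, the in vitro values came to 23.0, 46.6 and 27.3 normalised reads, against 54.2, 30.1 and 52.0 in vivo. In vitro library B lay among the in vivo values and in vivo library B among the in vitro values, so the groups overlapped. The means were 32.3 ± 12.6 in vitro and 45.4 ± 13.3 in vivo (SD over libraries, n = 3 per group), 1.41-fold lower in vitro. Limma voom gave Atm a log2 change of -0.50 (SE 0.36, 95% interval -1.26 to 0.26, adjusted p = 0.392), and the authors' deposited table listed a PPEE of 0.759.

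Atr, the kinase of stalled forks, exceeded Atm in reads in every library. The in vitro libraries (A to C) held 95, 97 and 126 Atr reads and the in vivo libraries (A to C) 174, 157 and 79. In normalised reads the in vitro libraries stood at 87.3, 100.5 and 156, and the in vivo libraries at 141, 139 and 89.2. The highest value was in vitro library C, and in vivo library C was close to the lowest, so neither group lay above the other. With means of 115 ± 36.6 in vitro and 123 ± 29.2 in vivo (SD over libraries, n = 3 per group), the ratio was 1.07-fold. The limma voom estimate was -0.19 on the log2 scale (95% interval -0.72 to 0.35, adjusted p = 0.673). A change of the size of 2-fold in either direction lies outside this interval.

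Of the effector kinases, Chek1 was the most abundant of the members and Chek2 one of the least. Chek1, which also restrains unperturbed cell cycles through Cdc25 and Wee1, had means of 3314 normalised reads in vitro and 3099 in vivo in the authors' deposited table. By the authors' deposited table these differ by 1.07-fold (PPEE 0.983). Chek2 had 22, 23 and 9 reads in the in vitro libraries (A to C) and 22, 26 and 11 in the in vivo libraries (A to C). Normalised, the in vitro values came to 20.2, 23.8 and 11.2, against 17.8, 23.0 and 12.4 in vivo. Library C was the lowest of its group in both groups, and the groups overlapped along their whole range. The Chek2 means were 18.4 ± 6.53 and 17.7 ± 5.30 (SD over libraries, n = 3 per group). Its log2 change by limma voom was 0.04, with a 95% interval of -0.87 to 0.95 (adjusted p = 0.964). These few reads leave room for changes approaching 2-fold in either direction. Per kilobase of the deposited gene length, Chek1 exceeded Chek2 by 119-fold in vitro and by 116-fold in vivo.

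Trp53 and its ligase Mdm2 were both well expressed and close in both groups. Trp53 had means of 409.7 normalised reads in vitro and 474 in vivo in the authors' deposited table, 1.16-fold lower in vitro with a PPEE of 0.900. The mouse genome holds a pseudogene copy, Trp53-ps. In the RefSeq annotation E230016M11Rik overlaps Gadd45a, Gm24928 overlaps Trp63, and 1700065D16Rik, LOC115487301 and Gm16794 overlap Atr. How the authors' counting treated reads shared between such genes is not given in the sources used here. For Mdm2 the authors' deposited table gave means of 1757 in vitro and 1797 in vivo, a 1.02-fold difference with a PPEE of 0.983. Of all genes, 5.15% had a smaller change than Mdm2. Mdm2 exceeded Trp53 per kilobase by 2.55-fold in vitro and 2.26-fold in vivo.

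Trp63 was the only one of the 5 recovered members whose libraries did not overlap between the groups, with lower values in vitro, but it passed neither test. It had 134, 101 and 103 reads in the in vitro libraries (A to C) and 203, 196 and 127 in the in vivo libraries (A to C). After scaling, the in vitro libraries stood at 123, 105 and 128 normalised reads and the in vivo libraries at 164, 174 and 143. Every in vitro library lay below every in vivo library. Such a separation in this direction was seen in 14.0% of the 5804 solved genes, and in either direction in 30.3%, so it is common here. The means were 119 ± 12.2 in vitro and 160.4 ± 15.4 in vivo (SD over libraries, n = 3 per group), 1.35-fold lower in vitro. Limma voom gave a log2 change of -0.45 (SE 0.19, 95% interval -0.86 to -0.04) with an adjusted p = 0.153. The PPEE of Trp63 was listed as 1 in the authors' deposited table, as it was for 1627 genes (14.9%). The table sums the forms of a gene, so the full-length form of oocytes and the short form of epithelia cannot be told apart. Trp73, the remaining gene of the p53 family, had means of 86.9 in vitro and 73.7 in vivo (PPEE 0.855 by the authors' deposited table).

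Gadd45a, which binds cell cycle and repair proteins after stress, had the largest change of the members and, of the 5 recovered ones, the fewest reads in vivo. It had 20, 21 and 20 reads in the in vitro libraries (A to C), and 7, 1 and 18 in the in vivo libraries (A to C). These scaled to 18.4, 21.8 and 24.8 normalised reads in vitro and 5.66, 0.886 and 20.3 in vivo. The in vitro libraries were alike, whereas the in vivo libraries were spread widely and library C reached the in vitro range. The means were 21.7 ± 3.22 in vitro and 8.96 ± 10.1 in vivo (SD over libraries, n = 3 per group). Of all genes, at any level, 94.4% had a smaller fold change between the group means. Gadd45a itself was low, at percentile 15.7 in vitro and 3.38 in vivo by mean reads. Limma voom, which averages log values, gave a log2 change of 2.11 (SE 0.70, 95% interval 0.64 to 3.59) with an adjusted p = 0.0749.

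A single library moved the Gadd45a value. Without in vivo library B, the one with 1 read, the limma voom log2 change was 1.11 (adjusted p = 0.308), and the ratio of the means went from 2.42-fold to 1.67-fold. Without in vivo library C it was 2.89 (adjusted p = 0.0817), and the ratio of the means rose to 6.62-fold. Leaving out in vitro library A gave 2.25 with an adjusted p = 0.0325, the only omission under which any member was called. At a PPEE below 0.1 Gadd45a would be called, along with 17.8% of all genes.

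Some markers of granulosa and cumulus cells, which surround the oocyte in its follicle, were called higher in vitro, where the Gadd45a mean was higher. Of 14 such markers 7 were measured, and 4 of these were called higher in vitro and 0 lower, against 6.75% of all genes called higher and 8.31% lower. Every gene of the table had a mean of at least 6.74 in at least 1 group. Inhba, Hsd3b1 and Fshr lay below that in vivo (2.69, 3.34 and 2.45), so only their in vitro mean gave them a row. Their direction was thus fixed by that floor, and the 4 calls cannot be weighed against the shares of all genes. By the authors' deposited table, Inhba, an activin subunit, had a mean 22.4-fold higher in vitro, Hsd3b1, a steroid dehydrogenase, 8.38-fold, Fshr, the receptor for follicle stimulating hormone, 5.08-fold and Inha, an inhibin subunit, 3.34-fold. Of the 3 markers not called, Cyp19a1, the aromatase, had a mean 1.43-fold higher in vitro, while Nr5a2, a nuclear receptor, and Kitl, the ligand of Kit, had means 1.26-fold and 1.08-fold lower in vitro by the authors' deposited table. The 7 markers summed to 412, 525 and 426 normalised reads in the in vitro libraries (A to C) and to 270.0, 264 and 265 in the in vivo libraries (A to C). Of these sums, the 4 called markers made up 204, 227 and 160.0 in the in vitro libraries (A to C) and 43.7, 38.1 and 30.5 in the in vivo libraries (A to C). These 4 were picked by their calls, so their higher sums in vitro were fixed by that choice. The 3 markers not called summed to 208, 297 and 266 in the in vitro libraries (A to C). In the in vivo libraries (A to C) they summed to 226, 226 and 235, so the groups overlapped. The part of follicle cells in the Gadd45a difference was not tested. In pooled samples, fewer cells of a type and less RNA per cell cannot be told apart. Of 8 theca and stroma markers 0 were measured, and of 6 blood and immune markers 1 was, Cd68, at means of 14.1 in vitro and 10.8 in vivo in the authors' deposited table. Markers without a row may have had few reads in both groups.

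**Figure D3:**
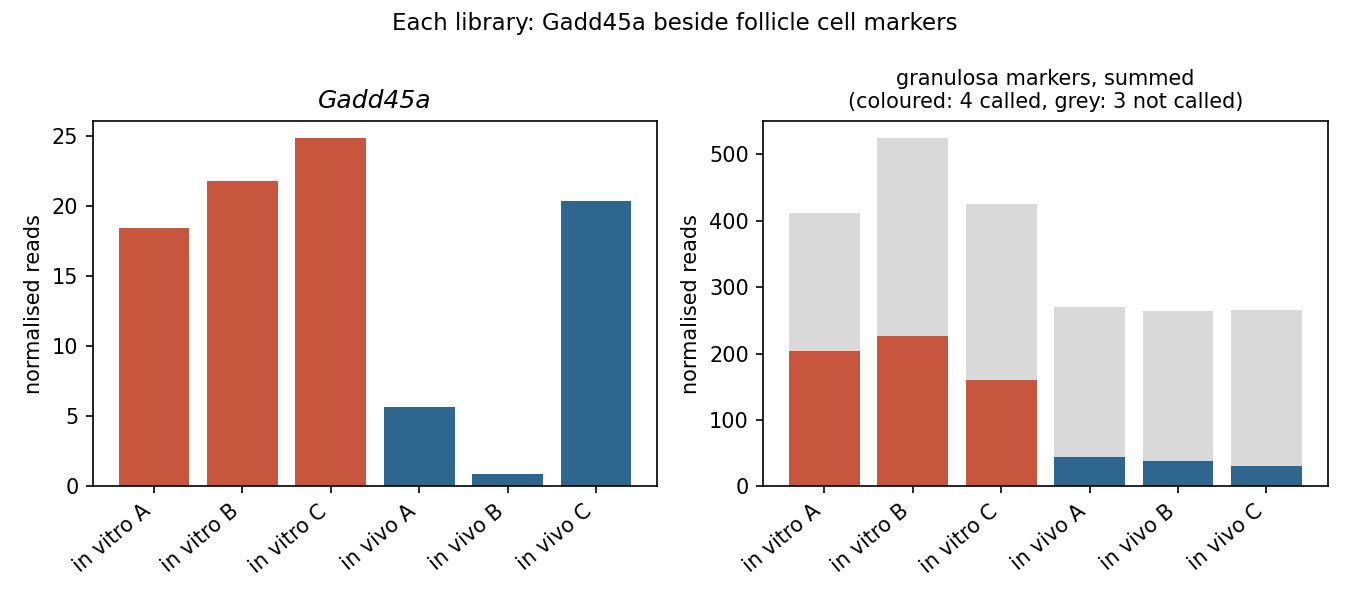
Bars give normalised reads in each recovered library (red, in vitro; blue, in vivo), for Gadd45a on the left and for the sum of 7 granulosa markers on the right, where the coloured part is the 4 called markers and the grey part the 3 others. The called markers lie between 160.0 and 227 in vitro and between 30.5 and 43.7 in vivo, and Gadd45a between 18.4 and 24.8 in vitro and between 0.886 and 20.3 in vivo. The called markers were picked as higher in vitro, so the direction of their difference was fixed by that choice.

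The order of the members' levels was nearly the same in both groups. Levels are compared here as normalised reads per kilobase of the gene length in the authors' deposited table. In vitro they ran from Chek1 (976) and Mdm2 (580.3) through Trp53 (227), Trp63 (40.2), Gadd45a (17.7), Atr (14.2) and Chek2 (8.19) to Atm (2.70). In vivo the order was Chek1 (912), Mdm2 (594), Trp53 (263), Trp63 (54.4), Atr (15.2), Chek2 (7.90), Gadd45a (7.32) and Atm (3.80). Gadd45a was thus the gene that changed place, from the fifth to the seventh. Among all genes of the table, Chek1 stood at percentile 96.1 in vitro and 95.8 in vivo, and Mdm2 at 92.8 and 92.7. Atm lay at percentile 3.80 in vitro and 6.50 in vivo, and by mean reads without division by length at 22.4 and 29.5.

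Library values set limits on this order. Trp63 ranged from 35.5 to 43.4 reads per kilobase in vitro and from 48.7 to 58.9 in vivo, above every library of the 4 lower genes. In vitro, Gadd45a (15.0 to 20.3 per kilobase) and Atr (10.8 to 19.4 per kilobase) overlapped and are not ordered. In vivo, Gadd45a (0.724 to 16.6 per kilobase) overlapped Atr, Chek2 and Atm. Chek2 ranged from 4.97 to 10.6 per kilobase in vitro and from 5.53 to 10.2 in vivo, below every Atr library and above every Atm library of the same group. Atr exceeded Atm per kilobase in 6 of 6 libraries, by 2.54-fold to 8.49-fold. The deposited means themselves hardly followed gene length, with a Spearman correlation across genes of 0.06 in vitro and 0.10 in vivo, so division by length weighs most on long genes such as Atm. Without that division Atm still had a lower mean than Atr, by 3.55-fold in vitro and 2.71-fold in vivo, and it then stood above Chek2 and Gadd45a.

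**Figure D4:**
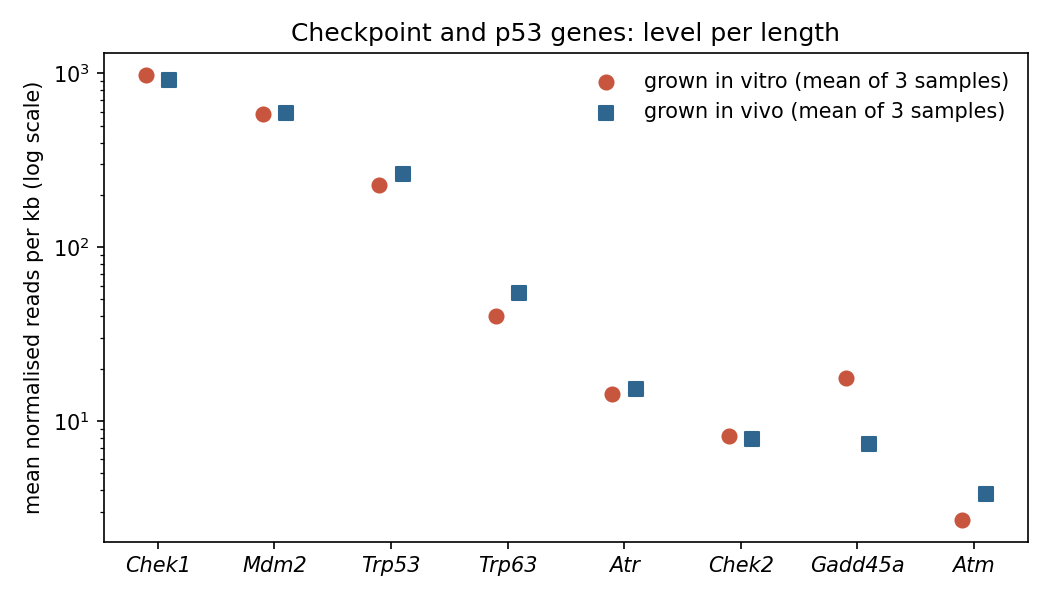
Mean normalised reads per kilobase (log axis) of the 8 genes in oocytes grown in vitro (red circles) and in vivo (blue squares), ordered by the in vivo level; each point is the authors' mean of 3 samples and carries no error. Chek1 stands at 976 and 912 and Atm at 2.70 and 3.80, and the points of a gene lie close together for all but Gadd45a.

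Around these 8 genes, 4 wider lists of the pathway held 59 measured genes, of which 4 were called higher and 7 lower in vitro. That is 18.6%, against 15.1% of all genes. The sensors and mediators that work with Atm and Atr held 20 measured genes, with 1 called higher and 4 lower in vitro (25.0% called). Of all genes, 6.75% were called higher and 8.31% lower, and with 20 genes the difference in share says nothing about the list. The median log2 change of this list was -0.08. Trp53bp1, a chromatin reader at double-strand breaks, had means of 3475 in vitro and 6561 in vivo in the authors' deposited table, 1.89-fold lower in vitro with a PPEE of 1.65e-06. Brca1, which steers repair by recombination, was 2.01-fold lower, Mdc1, a scaffold on damaged chromatin, 1.68-fold and Rad50, part of the break sensor that recruits Atm, 1.39-fold lower in the authors' deposited table. For Brca1, Mdc1 and Rad50 the authors' deposited table lists PPEE values of 8.35e-06, 0.000182 and 2.65e-08. Tipin, which helps Atr signal at forks, was called 1.27-fold higher in vitro (PPEE 0.000329 by the authors' deposited table). Atrip, the obligate partner of Atr, was not called, and the authors' deposited table gives it means of 119 in vitro and 104 in vivo (PPEE 0.892). Of the partners of Rad50 in the break sensor, Mre11a had a mean 1.35-fold lower and Nbn a mean 1.14-fold higher in vitro, and neither was called (PPEE 0.882 and 0.931 by the authors' deposited table). Both were picked with their values in view. The 4 genes called lower have long transcripts, with gene lengths of 5153 to 7722 bases in the authors' deposited table, against 1211 for Tipin. Crebbp, a gene of the next list that was called higher in vitro, is also long, at 7507 bases. Across all genes, the Spearman correlation of the log2 change with gene length was -0.16, and the part of length in these calls was not tested.

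The p53 family and its regulators held 14 measured genes, with 2 called higher and 1 lower in vitro and a median log2 change of 0.16. The called share was 21.4%, against 15.1% of all genes, and with 14 genes that difference says nothing about the list. Mdm4, the relative of Mdm2 that binds and masks p53, was far more abundant than Mdm2. Its means were 15106 in vitro and 18569 in vivo in the authors' deposited table, 1.23-fold lower in vitro with a PPEE of 0.0121. Per kilobase it exceeded Mdm2 by 7.46-fold in vitro and 8.96-fold in vivo. Csnk1a1, casein kinase 1 alpha, had means of 413 in vitro and 120.4 in vivo, 3.43-fold higher in vitro (PPEE 0.00469 by the authors' deposited table). Its relatives Csnk1d and Csnk1e, picked with their values in view, were not called. The authors' deposited table gives Csnk1d means of 121 in vitro and 119 in vivo (PPEE 1), and Csnk1e means of 1843 in vitro and 1897 in vivo (PPEE 0.981). Crebbp, an acetyltransferase that p53 recruits, was called 1.51-fold higher in vitro (PPEE 0.00225 by the authors' deposited table).

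Known target genes of p53 did not share a direction. Of 24 listed, 15 were measured, with 1 called higher, 2 lower and 12 not called, and a median log2 change of -0.02. Of all genes, 6.75% were called higher and 8.31% lower, and with 15 genes these counts say nothing about the list. Cdkn1a, Bbc3 and Pmaip1, the best known targets for arrest and death, had no row of their own and were not analysed here. Every gene of the table had a mean of at least 6.74 in at least 1 group. Targets without a row may thus have had few reads in both groups, which cannot be told from the table. Ei24 had means of 70.5 in vitro and 26.6 in vivo, 2.65-fold higher in vitro (PPEE 2.13e-09 by the authors' deposited table). Ei24 was also called by limma voom (adjusted p = 0.0217). Aen, a nuclease induced by p53, was 1.88-fold lower in vitro (PPEE 0.0221 by the authors' deposited table), and limma voom gave it an adjusted p = 0.0408. Btg2, an antiproliferative factor, was 1.71-fold lower in vitro (PPEE 0.00133 by the authors' deposited table). The other Gadd45 gene measured, Gadd45b, named after its values were seen, had means of 12.7 and 12.9 in the authors' deposited table.

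Cell cycle targets of the checkpoint kinases held 10 measured genes, of which 0 were called, against 15.1% of all genes. With 10 genes, that difference in share says nothing about the list. Their median log2 change was 0.04. Cdc25b, the phosphatase that starts meiotic resumption in mouse oocytes, had means of 214 in vitro and 184 in vivo (PPEE 0.855 by the authors' deposited table). Wee2, the oocyte kinase that opposes it, had means of 5578 and 6060 (PPEE 0.982 by the authors' deposited table).

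**Figure D5:**
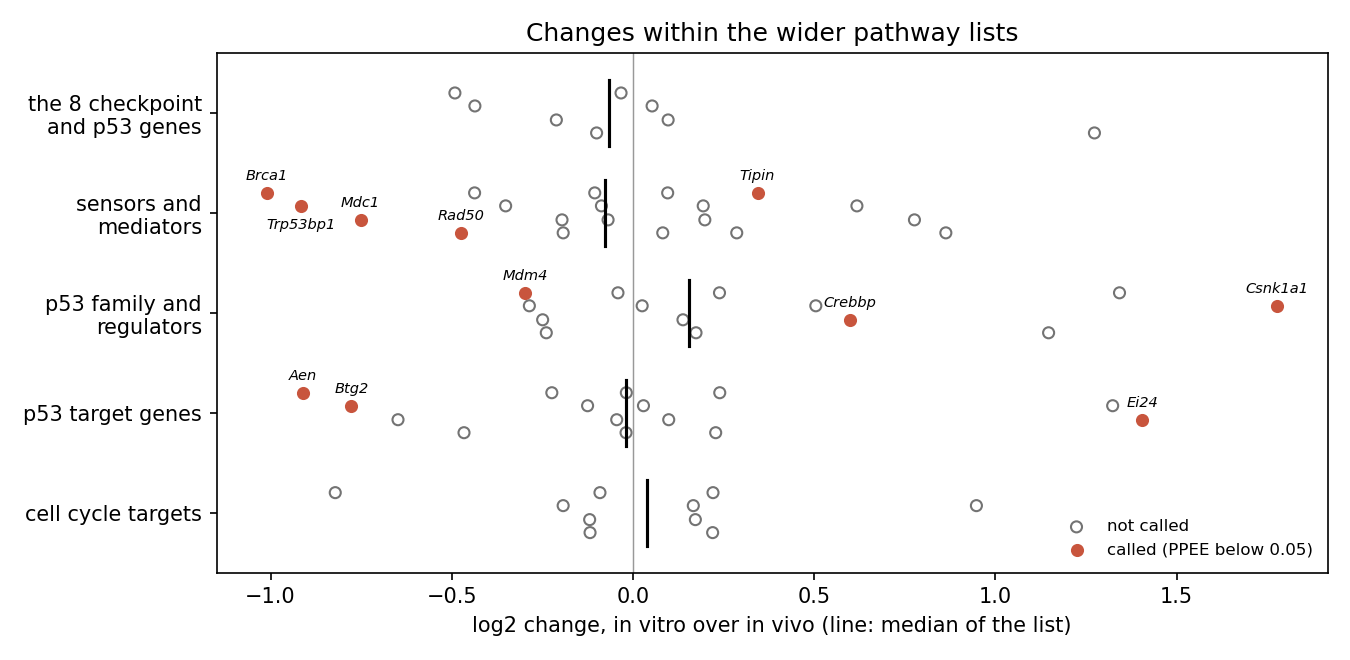
The log2 change, in vitro over in vivo, of the 8 checkpoint and p53 genes and of 4 wider lists; each circle is a gene, filled where its PPEE is below 0.05, and vertical lines are medians. No circle is filled among the 8 genes or the cell cycle targets, and the 11 filled circles of the other lists lie on both sides of 0.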

How the data were processed

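RNA of 6 oocyte pools was sequenced by the submitters after cDNA amplification from 10 ng of total RNA, per the labels' protocols. The submitters' processing notes name BWA and build mm9. The signal that the authors deposited is the mean normalised read number of each gene over the 3 samples of a group. The scale factors behind it are not given in the sources used here. They also deposited a log2 ratio, which holds a constant of 0.599 added to each mean, and a PPEE, a probability that is not a p-value. Folds and log2 changes here were taken from the group means themselves.

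Whole reads per library were solved from means up to 200 in 95.1% of cases in vitro and 95.4% in vivo. Means shifted by a random amount gave a solution in 0 of 600 cases up to 100 in either group, and in 2.67% and 4.67% of cases between 100 and 200, the range of Trp63 and Atr. Tested on 3 simulated sets of means, at least 99.97% of genes were solved and 100% of these were right. The solved reads were analysed with limma 3.58.1 (R 4.3.3), 2-sided, with library sizes set by the recovered scales. In simulated data for this comparison (5804 genes) limma voom found 50% of 2-fold and 98% of 4-fold changes. Each share pools 100 changed genes, so it is not the share for a low or widely spread gene such as Gadd45a. How often a change in a given member would be found was not tested. Reads carry no molecular identifiers.

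The planned main call was the PPEE, since the table has no column per sample. The members and the lists were chosen with earlier results of these data known. Named genes were all members, called genes of each list (at most 5) and 10 fixed names. RefSeq (GRCm38) was used for names only, and 8 of 8 identifiers matched. Alternatives were other PPEE limits, a minimum fold or mean, pseudocounts of 1 and 5, centring, limma voom, and leaving out each library.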

Additional observations from a re-analysis of the deposited data

How the results depend on the processing

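The count of 0 called members rose to 1 (Gadd45a) at a PPEE below 0.1, and was 0 with limma voom on the 5 recovered members. A PPEE below 0.01, a minimum change of 1.5-fold and a minimum mean of 10 only narrow the main call. The count of 0 under those settings was thus fixed in advance. Leaving out 1 library at a time gave 0 to 1 called members. Over these omissions the limma voom log2 change ranged from 1.11 to 2.89 for Gadd45a, which was called at 2.25 without in vitro library A. It ranged from -0.51 to -0.36 for Trp63, from -0.80 to -0.26 for Atm and from -0.40 to -0.002 for Atr. That of Chek2 ranged from -0.15 to 0.31 and turned negative without in vitro library A (-0.04), in vitro library B (-0.15) or in vivo library C (-0.14). At a PPEE below 0.01 the regulators called lower in vitro went from 1 to 0 (Mdm4) and the p53 targets called lower from 2 to 1, since fewer genes pass a stricter limit. Centring and pseudocounts of 1 and 5, which re-make no call, turned the direction of none of the 8 members. The other alternatives called no further member and moved no list count by over 1.5 times. No paired analysis was possible because the deposited columns are group means and the recovered libraries carry no replicate number. Depth limits Chek2, Atm and Gadd45a, with 54, 92 and 61 reads in vitro and 59, 147 and 26 in vivo over 3 libraries. No spread could be had for Trp53, Mdm2 and Chek1.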
